A study of Mus musculus with 12 samples.

Results

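Effector T cells (Teff) lacking Blimp1 were compared with control Teff cells on 6 of the 12 arrays of the study, 3 labelled CKO (Blimp1-deficient) and 3 labelled Ctrl (Blimp1-sufficient), chosen by their sample titles. The study used Illumina mouse arrays on total RNA of sorted T cells in 4 groups of 3, the other 6 arrays being Foxp3+ regulatory T cells (Treg) of the same genotypes. Naive CD4+CD44low T cells of either genotype came from C57BL/6 donors aged 8 to 12 weeks and carried a Foxp3 GFP reporter and an allotype marker. They were mixed in equal parts before transfer into RAG1-/- mice, a strain that makes no mature T or B cells. After 6 to 8 weeks the CD4+Foxp3- cells were sorted by allotype from pooled spleen, mesenteric lymph nodes and lamina propria of the large intestine, and were stimulated in vitro with PMA and ionomycin for 4 h. All groups therefore share the lymphopenic host, the transfer and the stimulation. The sources used here do not name the Cre or promoter that made the deletion. Nothing states that arrays of a group came from separate animals, so p-values measure only the spread between these samples. Arrays with the same number were treated as pairs.

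Blimp1, encoded by Prdm1, is a zinc-finger transcriptional repressor known for driving plasma cell differentiation. In T cells it is made by activated effector and regulatory cells, where it is known to limit Il2 and Bcl6 expression and to be needed for full production of interleukin-10. Mice whose T cells lack it are known to develop intestinal inflammation.

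Values are log2 intensities, on which 1 unit is a 2-fold difference, and differences are CKO minus Ctrl. Probes above the median of their own array on 3 or more of the 12 arrays were kept. That left 12119 genes, each read by 1 probe. Array medians lay between 4.66 and 4.68, so a value near that level is at the middle of all probes, most of which carry little signal. T cell genes marked every Teff array. The 7 tested members of the T cell marker list (of 9) averaged 10.5, 10.6 and 10.6 on Ctrl arrays 1, 2 and 3, and 10.2, 10.1 and 10.3 on the CKO arrays. Cd3e and Cd2 read above 10 everywhere, whereas the Cd4 probe read only 4.95 to 6.40. The 3 tested B cell markers stayed near the array median, with list means from 4.52 to 4.68. The 12 arrays fell into 2 sets of 6 by their values, and 1193 of 19396 kept probes had no overlap between those sets. The sets were drawn from these same values, so the count describes the split and does not test it. Teff pairs 1 and 2 lay in one set and pair 3 in the other, so each pair difference lies within a set.

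Few genes separated CKO from Ctrl Teff cells beyond the spread between arrays. Without pairs, limma called 2 of 12119 genes (0.0165%) at an adjusted p under 0.05, Prdm1 and Cx3cl1, both higher on the CKO arrays, and 0 lower, while 505 genes (4.17%) had an unadjusted p under 0.05. With the pairs in the fit it called 12 genes (0.099%). Of these 5 rose (Prdm1, Slc2a6, Cd74, Tnfsf4 and Cx3cl1) and 7 fell (Il10, Grap2, Sit1, Ctla4, Xpc, Tmem154 and a Riken clone, A430093F15Rik), beside 1257 genes (10.4%) at an unadjusted p under 0.05. The unpaired count was 0 when any of 10 other arrays was left out, 3 without CKO Treg 2 and 52 without CKO Teff 3. The paired count was 4, 34 and 123 without Teff pair 1, 2 and 3, and 6 without Treg pair 1. Cd74, Il10, Prdm1 and Slc2a6 remained among the calls in each of these 4 fits with pairs, and all 12 genes kept their sign. With the 6 Teff arrays alone and pairs, Il10, Prdm1 and Slc2a6 remained, and the other 9 genes, Cd74 among them, were no longer called.

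The targeted gene was called in either fit, with higher values on the CKO arrays. Prdm1 read 4.64, 5.39 and 4.73 on Ctrl arrays 1, 2 and 3, and 7.83, 9.0 and 7.94 on the CKO arrays. The groups did not overlap, and the Ctrl values lay near the array median. The rise was 3.34 (SE 0.38, adjusted p = 0.0235 without pairs and 0.00307 with pairs), and in Treg cells the same probe differed by 3.27. The sources used here do not place this probe inside or outside the deleted exons, so its signal does not check the labels in either direction. Directions in the text therefore rest on the arrays labelled CKO and Ctrl. A second Prdm1 probe never exceeded 4.56 and was not kept. Foxp3, the transcription factor by which Treg and Teff cells were separated, read 4.42 to 4.73 on Ctrl arrays and 4.48 to 4.85 on CKO arrays with the probe used, a difference of 0.06 (SE 0.40). Another Foxp3 probe differed by 1.23, with pair differences of 1.79, 1.60 and 0.31, and the remaining kept Foxp3 probes by 0.04 and 0.21.

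The largest fall in the whole table was that of Il10, the gene of interleukin-10, a cytokine that restrains inflammation. It read 12.46, 12.27 and 11.12 on Ctrl arrays 1, 2 and 3, and 10.31, 9.81 and 8.35 on the CKO arrays. Every CKO value lay under every Ctrl value, yet all 3 CKO values stayed far above the array median. Il10 fell by 2.46 with pairs (SE 0.18, adjusted p = 0.00307), and by the same amount without pairs with an SE of 0.49 and an adjusted p of 0.676. The pair differences were -2.14, -2.46 and -2.78.

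Ctla4, an inhibitory receptor that competes with Cd28 for their shared ligands, was lower in each pair. Its values were 11.22, 11.33 and 9.75 on the Ctrl arrays and 9.54, 10.21 and 7.40 on the CKO arrays. Array 3 was low in either genotype, so the groups overlapped while the pairs did not cross. It fell by 1.71 with pairs (SE 0.21, adjusted p = 0.0285), and its SE without pairs was 0.63 (adjusted p = 0.9999).

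Grap2 and Sit1 encode proteins that act next to the T cell receptor, the former an adaptor (Gads) that links Lat to Slp76 and the latter a transmembrane adaptor that dampens receptor signals. Grap2 read 6.58, 7.07 and 6.13 on Ctrl arrays against 5.21, 5.75 and 4.91 on CKO arrays. Sit1 read 6.39, 6.76 and 7.06 against 4.93, 4.91 and 6.11. Neither gene overlapped between groups. With pairs Grap2 fell by 1.30 (SE 0.15, adjusted p = 0.0238) and Sit1 fell by 1.42 (SE 0.17, adjusted p = 0.0285), whereas without pairs their adjusted p was 0.676 and 0.727. A second probe of Grap2 differed by -1.32 and a second probe of Sit1 by -0.89.

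The remaining named falls were those of Tmem154 and Xpc. Tmem154, a transmembrane protein, read 6.53, 6.11 and 6.36 on Ctrl arrays and 5.09, 5.14 and 4.96 on CKO arrays. Xpc, the damage sensor of nucleotide excision repair, read 7.25, 6.90 and 6.93 against 6.52, 6.00 and 5.77. Each had all CKO values under all Ctrl values. Tmem154 fell by 1.27 with pairs (SE 0.17, adjusted p = 0.0464) and Xpc fell by 0.93 (SE 0.12, adjusted p = 0.0414). A second Xpc probe, at a mean near 4.6 in either group, differed by 0.02. Of 14 tested nucleotide excision repair genes (of 16), Xpc was the only one called, and the list's median difference was -0.12 against -0.02 for all genes.

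Slc2a6, a hexose transporter of the lysosomal membrane, had the largest rise after Prdm1 among the genes called with pairs. Its values were 8.05, 6.91 and 7.79 on the Ctrl arrays and 9.95, 9.38 and 10.44 on the CKO arrays, with a clear gap between groups. The rise was 2.34 (SE 0.21 with pairs, adjusted p = 0.00821; SE 0.35 and adjusted p = 0.144 without pairs). Among 18 tested hexose transport and glycolysis genes (of 22) it was the only one called, and the list's median difference was 0.07. Slc2a3, which encodes the glucose transporter Glut3, stood on the other side of 0 at -0.52 (adjusted p = 0.301 with pairs), and Pgam1, a glycolytic mutase, at 0.33 (adjusted p = 0.305 with pairs).

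Tnfsf4 and Cx3cl1 encode ligands. Tnfsf4 is OX40 ligand, a costimulator of T cells that bear the receptor Tnfrsf4, and it read 5.24, 4.70 and 4.87 on Ctrl arrays against 6.38, 6.64 and 5.82 on CKO arrays. Cx3cl1 is fractalkine, the ligand of Cx3cr1, and read 4.56, 4.57 and 4.54 against 5.56, 5.93 and 5.51. Every Ctrl value of Cx3cl1 lay under the median of its array, and every CKO value above it. Of the 6 Treg values only that of Ctrl Treg 2 (4.71) lay above the range of array medians, so the gene was kept through the CKO Teff arrays where it is high, and the size of its difference is set against values that may hold little signal. Cx3cl1 rose by 1.11 (SE 0.13, adjusted p = 0.0235 without pairs; 0.0238 with pairs). Tnfsf4 rose by 1.34 (SE 0.18 with pairs, adjusted p = 0.0497; adjusted p = 0.144 without pairs). The receptor Tnfrsf4 was read at 13.54 to 13.99 on Ctrl and 13.07 to 13.46 on CKO arrays, a difference of -0.46 that did not pass with pairs (adjusted p = 0.23).

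Cd74, the invariant chain that escorts MHC class II molecules, read 8.43, 10.37 and 8.19 on Ctrl arrays and 10.79, 11.75 and 10.01 on CKO arrays. Array 2 was highest in either genotype, so the groups overlapped and the pairs did not cross. It rose by 1.85 with pairs (SE 0.17, adjusted p = 0.00821; SE 0.66 and adjusted p = 0.9999 without pairs). Its other probes differed by 1.84 and 1.46. The rise moved together with the other class II genes and with markers of other cell types described below, and their part in it was not tested.

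**Figure D1:**
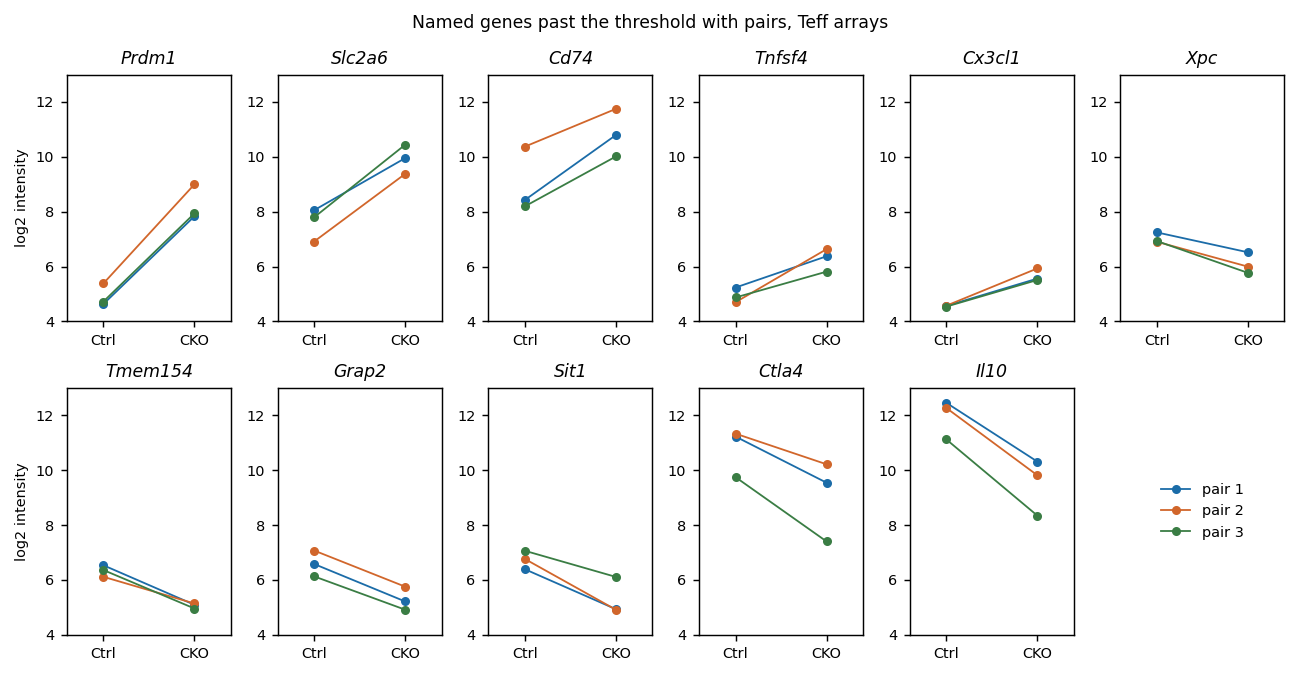
Log2 intensity of the 11 named genes past the threshold with pairs, on Ctrl and CKO Teff arrays, with a line joining the 2 arrays of each pair. All 3 lines of a gene run the same way, upward for 5 genes and downward for 6, and Il10 ends between 8.35 and 10.31 on the CKO arrays.

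Promoter windows were read for 7 of these 11 genes (RefSeq, GRCm38.p6, 250 bases before to 50 after the annotated start, 300 bases in all). Cd74, Il10, Tnfsf4 and Xpc were left out, so nothing is shown for their promoters. Blimp1 is known to bind sites built around GAAAG, so that motif was searched on both strands, and with it the longer GTGAAAG, which contains it. GAAAG lay in the windows of 3 of the 7 genes and in 57.3% of 32851 windows of that length. GTGAAAG lay in 0 of the 7 and in 4.24% of all windows. The share among these genes is thus no higher than among all promoters, and a match is only a match of letters. The 3 windows with GAAAG, capitals marking it or its reverse complement CTTTC, and that of Cx3cl1, which had none, are shown because these genes were called in the comparison. Slc2a6 is at chr2:27027949-27028248 (minus strand), Ctla4 at chr1:60908775-60909074 (plus strand), Sit1 at chr4:43483660-43483959 (minus strand) and Cx3cl1 at chr8:94771930-94772229 (plus strand). The match begins at -176 from the start in Slc2a6, -55 in Ctla4 and -222 in Sit1.
Slc2a6: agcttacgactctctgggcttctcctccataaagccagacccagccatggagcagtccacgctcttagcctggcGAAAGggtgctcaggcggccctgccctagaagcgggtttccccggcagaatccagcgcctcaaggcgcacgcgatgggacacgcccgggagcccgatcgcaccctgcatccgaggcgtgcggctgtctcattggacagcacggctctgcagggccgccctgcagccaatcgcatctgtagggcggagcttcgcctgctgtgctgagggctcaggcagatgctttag
Ctla4: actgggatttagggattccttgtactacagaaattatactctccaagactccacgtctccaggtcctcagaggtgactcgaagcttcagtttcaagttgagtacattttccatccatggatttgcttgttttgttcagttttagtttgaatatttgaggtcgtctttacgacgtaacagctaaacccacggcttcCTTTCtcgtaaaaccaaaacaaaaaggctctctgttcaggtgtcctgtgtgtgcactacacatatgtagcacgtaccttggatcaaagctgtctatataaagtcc
Sit1: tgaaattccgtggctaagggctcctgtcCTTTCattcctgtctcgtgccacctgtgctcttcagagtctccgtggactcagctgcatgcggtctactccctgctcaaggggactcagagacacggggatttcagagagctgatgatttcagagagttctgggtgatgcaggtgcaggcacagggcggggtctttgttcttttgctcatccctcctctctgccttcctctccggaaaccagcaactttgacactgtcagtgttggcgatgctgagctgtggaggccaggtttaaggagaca
Cx3cl1: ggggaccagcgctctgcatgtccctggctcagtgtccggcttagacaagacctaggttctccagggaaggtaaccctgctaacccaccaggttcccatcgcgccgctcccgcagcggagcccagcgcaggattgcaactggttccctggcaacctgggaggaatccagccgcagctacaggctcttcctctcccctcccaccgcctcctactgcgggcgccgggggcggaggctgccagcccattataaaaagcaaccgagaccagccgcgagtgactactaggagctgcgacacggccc

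Genes of T cell receptor signalling lay below 0 as a list. All 22 tested members (of 28) had a negative mean difference, with a median of -0.35 against -0.02 for all genes, of which 55.7% were below 0. Of the 22, 14 were lower in 3 of 3 pairs, against 17.7% of all genes. With pairs 11 had an unadjusted p under 0.05 and a lower value, against 5.4% of all genes. Grap2 alone passed the adjusted threshold with pairs. Lat, the membrane scaffold to which Grap2 binds, read 11.20, 11.04 and 11.63 on Ctrl arrays and 10.01, 10.20 and 10.76 on CKO arrays. Its groups did not overlap and its difference was -0.97 (SE 0.14, adjusted p = 0.0541 with pairs). Ubash3a, a negative regulator of receptor signals, differed by -1.03 (adjusted p = 0.0568), Rasgrp1, which activates Ras downstream of the receptor, by -0.68 (adjusted p = 0.0697), and the kinase gene Prkcq by -0.58 (adjusted p = 0.113). The coreceptor-associated Cd6 differed by -0.63 (adjusted p = 0.133), and the kinase Zap70, at 11.99 to 12.89 on all 6 arrays, by -0.44 (adjusted p = 0.203). Chains and effectors near 0 included Cd3d (-0.10), Nfatc1 (-0.09), Lcp2 (-0.05) and Ptprc (-0.01).

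The list median stayed below 0 in each pair, at -0.23, -0.62 and -0.32 in pairs 1, 2 and 3. The 7 T cell markers moved with it, with a median of -0.46, 6 of 7 below 0 and Thy1 alone above 0 at 0.33, and 5 of the 7 are also members of the signalling list. Fewer T cells in a sample and less of an RNA per cell cannot be told apart in bulk RNA, and the part of such a shift in these values was not tested.

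**Figure D2:**
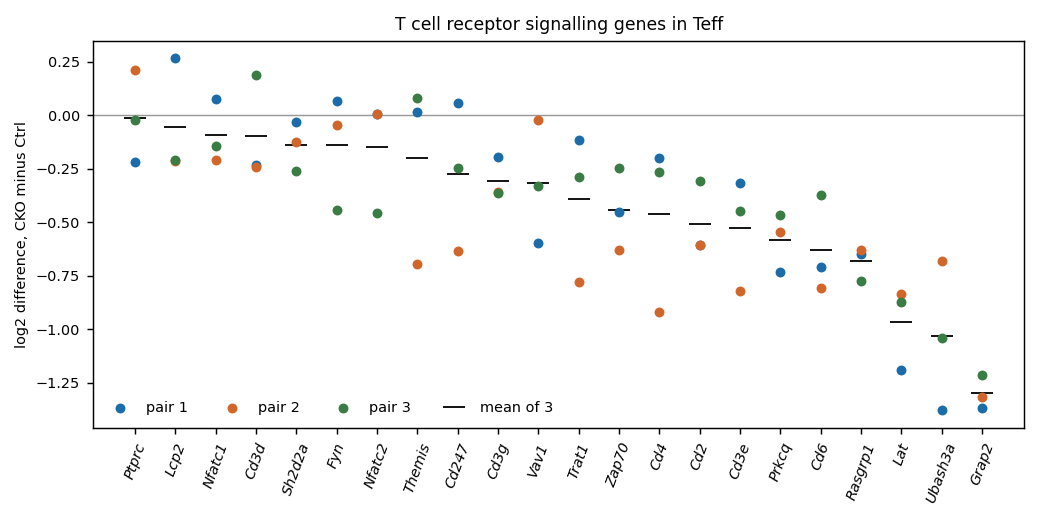
Log2 difference, CKO minus Ctrl, of the 22 tested T cell receptor signalling genes in each of the 3 Teff pairs (points) and on average (bars), ordered by the average. All 22 averages lie below 0, from -0.01 for Ptprc to -1.30 for Grap2.

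Among inhibitory and CD28 family receptors, 10 of 12 tested genes (of 16) had a lower mean on the CKO arrays, against 55.7% of all genes. The list median was -0.36. Ctla4 was called with pairs. Cd28, the main costimulatory receptor, read 8.59, 8.86 and 8.67 on Ctrl arrays and 7.82, 8.26 and 7.71 on CKO arrays, a difference of -0.78 with no overlap (adjusted p = 0.255 with pairs). Lag3, an inhibitory receptor for MHC class II, went the other way in each pair. It read 8.48, 8.18 and 8.80 on Ctrl arrays against 9.88, 9.35 and 9.83 on CKO arrays, a difference of 1.20 (adjusted p = 0.0901 with pairs). Cd96 differed by -0.54 (adjusted p = 0.246), and Tigit, Icos and Havcr2 by 0.05, -0.23 and -0.23.

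The helper cytokines did not move as a list. Of 22 tested genes (of 25) 10 were higher and 12 lower, with a median of -0.05, and Il10 alone was called with pairs. Ifng, the Th1 cytokine, sat at 14.73 to 14.98 on all 6 arrays, and 4 of these values were the highest that any array reports, so a rise would not have been visible. Il2 read 14.26 to 14.89 on Ctrl and 14.33 to 14.82 on CKO arrays, a difference of -0.10 with a 95% interval from -0.61 to 0.41. These values also lay close to the highest deposited value, 14.98, so a rise of Il2 may not have been visible either. Tbx21, which encodes the Th1 regulator T-bet, differed by 0.09 (interval -0.51 to 0.69). Among Th17 products, Il17a read 11.83, 11.14 and 11.38 on Ctrl arrays and 10.56, 10.78 and 10.73 on CKO arrays, a gap between groups but a difference of -0.76 that did not pass with pairs (adjusted p = 0.368). Il22 differed by -0.80 (adjusted p = 0.121 with pairs), and the chemokine Ccl20 by -1.75 (adjusted p = 0.176). Il17f differed by -0.08, with pair differences of -0.85, -0.29 and 0.90.

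Lif, a cytokine of the interleukin-6 family, came close to the threshold with the probe used. It read 7.84, 8.99 and 5.09 on Ctrl arrays and 10.66, 11.11 and 9.28 on CKO arrays, so that each pair differed by at least 2.12. The mean difference was 3.04 (SE 0.43, adjusted p = 0.0541 with pairs). Other probes of Lif differed by 1.99 and 2.78. Fitted probe by probe with pairs, limma gave them an unadjusted p of 2.6e-07 and 2.1e-05, against 6.2e-05 for the probe used. How Lif stood to the threshold thus depends on the probe. Il6 and Osm, of the same family, differed mainly in pairs 1 and 2, by 5.12 and 2.61 for Il6 and 3.51 and 1.52 for Osm, against 0.75 and 0.34 in pair 3. Il4, the Th2 cytokine, differed by 2.80, 0.88 and -0.95 in pairs 1, 2 and 3, and Il5 by 2.68, 2.11 and -0.30. Basophils also make Il4, their markers stood high on the CKO arrays of pairs 1 and 2, and their part in these differences was not tested. Gata3, which encodes the Th2 regulator, differed by -0.38 (adjusted p = 0.558 with pairs).

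Of genes that Blimp1 is known to repress, 8 of 11 tested (of 13) had a higher mean on the CKO arrays, against 44.2% of all genes, and the list median was 0.26 against -0.02. None was called by limma in either fit, while 3 had an unadjusted p under 0.05 with pairs and a higher value, against 4.98% of all genes. Ifng and Il2 belong to this list, and a rise of either may not have been visible so near the highest deposited value. Bcl6, the repressor that opposes Blimp1 in B and T cells, read 8.70, 9.37 and 8.76 on Ctrl arrays and 9.88, 9.35 and 9.80 on CKO arrays. It was higher in pairs 1 and 3 and level in pair 2, with a difference of 0.73 (adjusted p = 0.391 with pairs). Cxcr5, the follicular homing receptor, differed by 0.97 with pair differences of 1.21, 1.01 and 0.69 (adjusted p = 0.111), and Id3, an inhibitor of E proteins, by 0.76 (adjusted p = 0.189). Among 14 tested regulators of Il10 (of 15), Prdm1 alone was called. Batf and Irf4, transcription factors that bind DNA together, differed by -0.69 (adjusted p = 0.168) and -0.57 (adjusted p = 0.30). The Maf and Ahr probes read near the array median on all 6 arrays.

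The Treg signature, measured here in cells sorted as Foxp3-, held 2 of the genes that fell with pairs, Il10 and Ctla4. Of 16 tested members (of 22) 11 were lower, against 55.7% of all genes, with a median of -0.22. Cd83, an activation marker that dendritic cells also carry, stood out on the other side with 7.05, 8.03 and 5.96 on Ctrl arrays against 9.61, 8.97 and 7.79 on CKO arrays. Its difference was 1.78 (adjusted p = 0.0541 with pairs), with the groups overlapping. Il2ra differed by -0.32, Tnfrsf18 by -0.32 and Ikzf2 by -0.13.

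Chemokine genes were mixed, with 8 of 12 tested (of 16) higher, against 44.2% of all genes, and a median of 0.48. Beside Cx3cl1, which was called, Ccl9 read 6.72, 7.34 and 6.46 on Ctrl arrays and 11.95, 11.42 and 7.49 on CKO arrays (adjusted p = 0.108 with pairs). Ccl1, at 12.91, 13.77 and 13.31 against 12.11, 12.83 and 13.10, differed by -0.65 (adjusted p = 0.211). Among homing receptors Cxcr4, the receptor of Cxcl12, read 5.71, 5.70 and 6.05 against 7.54, 6.69 and 6.77, a difference of 1.18 without overlap (adjusted p = 0.102 with pairs). Ccr6, the receptor of Ccl20, differed by 1.36 (adjusted p = 0.222), and Cxcr6 by -0.84 (adjusted p = 0.489).

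Interferon response genes were higher for 23 of 26 tested members (of 32), against 44.2% of all genes, with a median of 0.35. With pairs 10 of them had an unadjusted p under 0.05 and a higher value, against 4.98% of all genes, and none passed the adjusted threshold in either fit. Rsad2, the antiviral enzyme viperin, read 5.89, 8.47 and 5.12 on Ctrl arrays and 7.14, 9.34 and 7.63 on CKO arrays (difference 1.54, adjusted p = 0.144 with pairs). Array 2 was high for Rsad2 in either genotype. The list mean was likewise higher on Ctrl array 2 (7.85) than on Ctrl arrays 1 and 3 (6.42 and 6.17), and on the CKO arrays it was 7.22, 8.06 and 6.53.

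Counting called and uncalled genes, 23 were at least 2-fold higher in 3 of 3 pairs and 7 at least 2-fold lower, 0.19% and 0.0578% of those tested, and 7 of these 30 were called with pairs. Synpo, an actin-binding protein, read 6.45, 7.93 and 5.56 on Ctrl arrays and 9.06, 9.07 and 9.40 on CKO arrays. Its difference was 2.53 without overlap (adjusted p = 0.0782 with pairs), whereas its second probe, near the array median, differed by 0.11. Armcx2 differed by 1.45 (adjusted p = 0.0541), and Gcg, the proglucagon gene, by -1.98 (adjusted p = 0.111). Tgm2, which encodes tissue transglutaminase, differed by 2.09 (pair differences 2.80, 0.81 and 2.65), short of 2-fold in pair 2. Trib2, a pseudokinase, read 8.73, 8.63 and 8.54 on Ctrl arrays and 6.87, 7.21 and 7.71 on CKO arrays, a difference of -1.37 (adjusted p = 0.0905 with pairs), and its second probe, near the array median, differed by -0.09. Trib2 was short of 2-fold in pair 3, at -0.83.

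Other genes without overlap between the groups moved by less. On the upper side were Tcf4 (1.31), a transcription factor of the E protein family, Mgat4b (1.19), a glycosyltransferase, and Cgrrf1 (0.80), with adjusted p between 0.0641 and 0.115 with pairs. On the lower side were the interleukin-17 receptor family gene Il17re (-0.91), the phosphodiesterase gene Pde4d (-0.55) and Elmod3 (-0.49), with adjusted p between 0.0901 and 0.187. Second probes of Mgat4b and Elmod3, near the array median, differed by only -0.05 and -0.02. Those of Cgrrf1 and Il17re differed by 0.64 and -1.19. Over all genes, 820 (6.77%) had no overlap between the groups: 349 (2.88%) had every CKO value above every Ctrl value and 471 (3.89%) every CKO value below.

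Markers of cells that the sort should not contain stood high on CKO arrays 1 and 2. For the 9 tested basophil and mast cell markers (of 12), the list mean was 5.81, 6.54 and 5.15 on Ctrl arrays 1, 2 and 3, and 9.92, 9.39 and 5.67 on the CKO arrays. All 9 had a mean difference above 0, against 44.2% of all genes, and their median was 2.65. The median in pairs 1, 2 and 3 was 4.64, 3.12 and 0.38, and without pairs 1 and 2 it was therefore 0.38. Prss34, a basophil protease, had the largest difference in the table, 4.31, with 7.34, 8.35 and 4.79 on Ctrl arrays against 13.96, 12.85 and 6.60 on CKO arrays. Mcpt8, another basophil protease, read 5.02, 5.59 and 4.54 on Ctrl arrays and 10.85, 10.18 and 5.12 on CKO arrays. Cpa3, a mast cell and basophil carboxypeptidase, read 4.77, 6.06 and 4.59 against 10.34, 9.94 and 4.65. Fcer1a, the binding chain of the IgE receptor, read 4.57, 5.55 and 4.62 against 8.93, 9.22 and 4.61. CKO array 3 read at or near the array median for Cpa3 and Fcer1a, whereas Prss34 and Hdc, which encodes the enzyme that makes histamine, were still higher by 1.80 and 1.20 in pair 3. None of the list passed the adjusted threshold in either fit, and 8 of 9 had an unadjusted p under 0.05 with pairs and a higher value, against 4.98% of all genes. Without CKO Teff 3, Mcpt8, Fcer1a, Cyp11a1 and Cpa3 passed without pairs (adjusted p from 0.0003855 to 0.0004701, over the alternatives up to 1).

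NK cell receptor genes showed a like split, highest on CKO array 2. The 9 tested CD8 and NK markers (of 14) averaged 5.88, 5.99 and 5.73 on Ctrl arrays and 7.04, 8.36 and 5.98 on CKO arrays. Klra7, a Ly49 receptor, read 4.90, 5.52 and 4.51 against 8.21, 10.84 and 5.78, and Klrk1, which encodes NKG2D, 4.52, 4.70 and 4.91 against 5.84, 6.99 and 4.87. Members of the Klra family are near-identical, and which of them a probe reads is uncertain. Prf1, the perforin gene, differed by 1.54, 3.92 and -0.44 in the 3 pairs, while Cd8b1 differed by -0.18 on average. The Cd8a and Ncr1 probes did not pass the filter.

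MHC class II and myeloid markers differed in another way. All 10 class II presentation genes were higher on average, against 44.2% of all genes, with a median of 1.00 and pair medians of 1.84, 0.74 and 0.43. H2-Ab1 read 6.30, 9.06 and 6.96 on Ctrl arrays and 9.71, 10.38 and 8.96 on CKO arrays, and was higher in each pair (adjusted p = 0.0689 with pairs). Ciita, the class II transactivator, read 4.27 to 5.48 on all 6 arrays and differed by 0.26. Neutrophil markers were high in either genotype on array 2. The 17 tested (of 18) averaged 7.55, 9.55 and 6.10 on Ctrl arrays and 8.76, 9.15 and 6.86 on CKO arrays, with pair medians of 0.77, -0.58 and 0.60. Il1b, of the neutrophil list, and Fcer1g, of the monocyte and macrophage list, were at least 2-fold higher in each pair. Their differences were 2.52 (adjusted p = 0.0782 with pairs) and 2.21 (adjusted p = 0.0611 with pairs). Of 13 tested monocyte and macrophage markers (of 16) 10 were higher, against 44.2% of all genes, with a median of 0.10. Tyrobp, of this list, was also at least 2-fold higher in each pair, with a difference of 1.78 (adjusted p = 0.0641 with pairs). The macrophage genes Csf1r and C1qa read between 4.45 and 5.21 on all 6 arrays.

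These marker values stand beside Cd74, Lif, Ccl9, Cd83, Osm, Il6, Il4 and the interferon response genes, and their part in those differences was not tested. In pair 3, where the basophil and NK lists differed least, Prdm1 differed by 3.21, Slc2a6 by 2.65, Cd74 by 1.82, Lif by 4.18, Il10 by -2.78 and Ctla4 by -2.34. In the same pair Tnfsf4 differed by 0.94, Cx3cl1 by 0.97, Grap2 by -1.21, Sit1 by -0.95, Tmem154 by -1.40 and Xpc by -1.16. Other markers were still higher on the CKO array of pair 3: Prss34 by 1.80, Klra7 by 1.27, Hdc by 1.20 and Klre1 by 1.15, and the mean of the 13 tested monocyte and macrophage markers was 5.63 against 4.98.

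**Figure D3:**
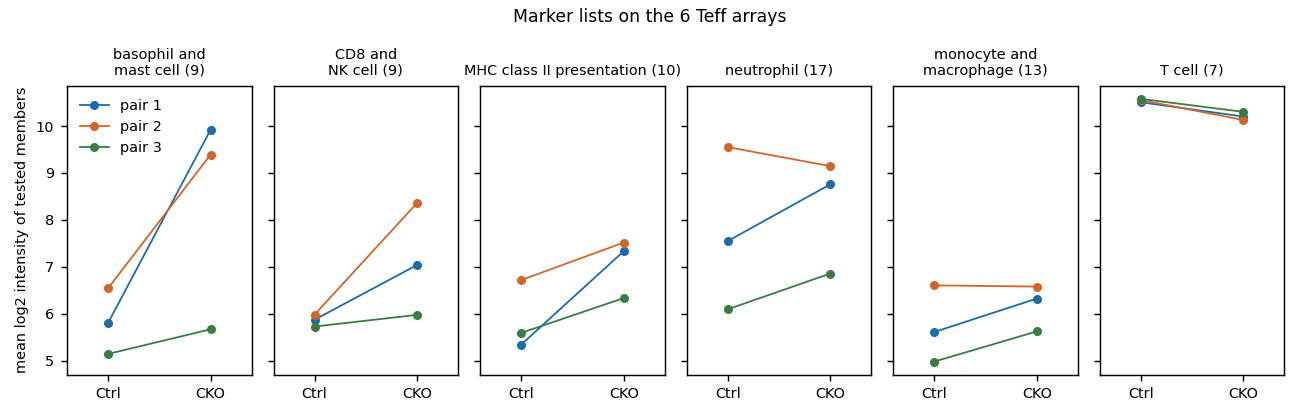
Mean log2 intensity of the tested members of 6 marker lists (number tested in parentheses) on the 6 Teff arrays, with a line joining each pair. Basophil and mast cell markers reach 9.92 and 9.39 on CKO arrays 1 and 2 and 5.67 on CKO array 3, while T cell markers stay between 10.1 and 10.6.

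The 3 pairs also differed in how many genes they separated. At least 2-fold higher on the CKO array were 335 genes (2.76%) in pair 1, 188 (1.55%) in pair 2 and 114 (0.941%) in pair 3, and at least 2-fold lower were 87 (0.718%), 69 (0.569%) and 61 (0.503%). Over genes, the pair differences correlated at 0.416 for pairs 1 and 2, 0.256 for pairs 1 and 3 and 0.129 for pairs 2 and 3, as a description of genes that are not independent. Several lists of general T cell states had medians near 0 over the 3 pairs together. The median difference was 0.04 for 13 Th1 genes, 0.04 for 10 Th2 genes, -0.08 for 13 Th17 genes, -0.05 for 16 survival and death genes and 0.01 for 18 genes of the unfolded protein response and secretion. Cell cycle genes had a median of -0.13, with 16 of 22 below 0, against 55.7% of all genes. The mean of that list was higher on array 3 in either genotype (8.53 and 8.26) than on the other Teff arrays (6.89 to 7.37). Survival gene Bcl2 differed by 0.44 and Mcl1 by -0.24. Other Bcl2 probes differed by 0.63, 0.50, 0.47, 0.47, 0.15 and -0.05. Fitted probe by probe with pairs, limma gave those from 0.47 to 0.63 an unadjusted p from 0.0020 to 0.0088. For the probe used it was 0.12.

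**Figure D4:**
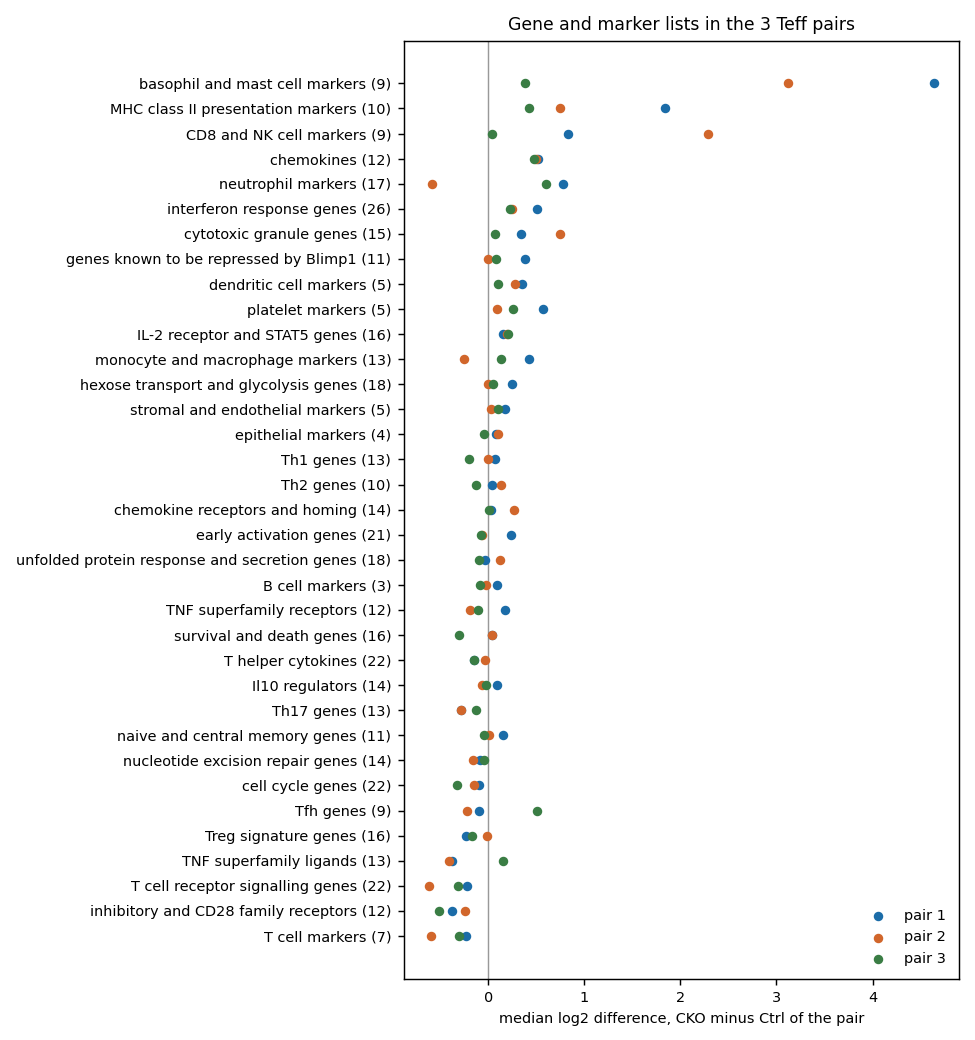
Median log2 difference, CKO minus Ctrl, over the tested members of each gene or marker list with at least 3 tested (number in parentheses) in the 3 Teff pairs. The basophil and mast cell list spreads from 0.38 in pair 3 to 4.64 in pair 1, whereas the T cell receptor signalling list lies below 0 in all 3.

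Set against the same genotypes in Treg cells, Slc2a6, Tmem154, Grap2 and Ctla4 differed in the same direction, as did Prdm1 and Il10. Treg differences of Cd74, Sit1, Xpc and the Riken clone are not given here. The Treg difference was 2.80 for Slc2a6, -1.22 for Tmem154, -0.90 for Grap2 and -1.13 for Ctla4, and the difference between cell types did not pass for these 4 genes (adjusted p between 0.506 and 0.966 with pairs). Tnfsf4 and Cx3cl1 read near the array median on all Treg arrays and differed there by 0.01 and -0.09. Their Teff minus Treg differences were 1.32 (adjusted p = 0.133 with pairs) and 1.20 (adjusted p = 0.0638), so a dependence on cell type was not shown for either. Lag3 differed by 1.2 in Teff and -0.71 in Treg (adjusted p = 0.11 for the difference with pairs).

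Il10 was the called gene whose difference depended on cell type when pairs were used. On the Treg arrays it read 12.53, 11.62 and 12.52 for Ctrl and 7.17, 6.85 and 6.94 for CKO, a difference of -5.24. The Ctrl levels of Teff and Treg cells were alike in range, and the CKO levels lay above 8 in Teff and below 8 in Treg. The Teff difference was smaller by 2.78 (SE 0.25, adjusted p = 0.0124 with pairs; SE 0.70, adjusted p = 0.9998 without pairs). Over all genes the cell type dependence passed for 2 genes (0.0165%) without pairs, Gpr83 and Ky, and for 5 (0.0413%) with pairs, Il10, Ecm1, Ky, Ncmap and Pdlim1, which were named after their values were seen. Beside them 422 (3.48%) and 1382 (11.4%) genes had an unadjusted p under 0.05. In Teff cells Gpr83, Ky and Ncmap read between 4.32 and 4.81 on all 6 arrays and differed by -0.15, -0.09 and -0.07, against -2.22, -1.63 and -2.86 in Treg cells. Such values lie near the array median, so a fall of these genes in Teff cells may not have been visible. Ky lay under the array median on every Teff array and at 4.25 to 4.52 on CKO Treg arrays. It was thus kept through the Ctrl Treg arrays where it is high (5.81 to 6.10). Without CKO Teff 3 the count without pairs was 22, it was 3 without Ctrl Treg 3 and 1 without CKO Treg 3, and leaving out any of the other 9 arrays gave 0.

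**Figure D5:**
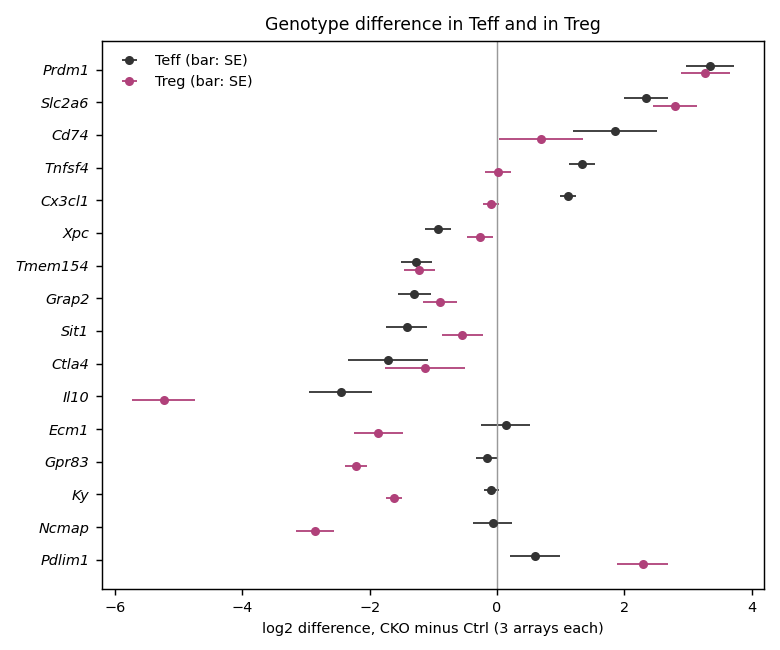
Log2 difference, CKO minus Ctrl, in Teff and in Treg cells (points, with the SE of the fit without pairs as bars, 3 arrays a group) for the 11 named genes called with pairs in Teff and 5 more whose difference depended on cell type. Il10 lies at -2.46 in Teff and -5.24 in Treg, and Tnfsf4 and Cx3cl1 lie near 0 in Treg.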

How the data were processed

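Biotin-labelled cRNA of 12 samples was hybridised to Illumina mouse arrays, per the labels' protocols, and GenomeStudio and limma (version 3.30.11) are listed in the submitters' processing notes. The authors deposited 1 log2 intensity for each probe and array. Their range shows the log2 scale, and the sources used here do not state the background correction, normalization or filter. Values were used as deposited. Arrays carry no read depth, so their number limits the precision.

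Of 31641 probes, 28197 have 1 gene symbol, 5 several and 3439 none. Probes above their array's median on at least 3 of 12 arrays were kept (19396, of which 17579 have 1 symbol), and each gene was read by its kept probe with the highest mean, giving 12119 genes, 3764 of them with several kept probes. Differences were tested with limma 3.58.1 (lmFit and eBayes, R 4.3.3; statmod 1.5.0, and the data.table package, version 1.17.8) with 1 mean per group over all 12 arrays, two-sided, and Benjamini-Hochberg adjustment over all genes at 0.05. A second fit added a fixed term for each pair of same-numbered arrays (the replicate block) (total degrees of freedom 10.5 without and 8.65 with pairs). Cells of the 2 genotypes were transferred together, and deviations of same-numbered Teff arrays from their group means correlated at 0.348, 0.733 and 0.737 (other combinations -0.674 to 0.0975), which is the basis of the pairing.

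Genes and lists were chosen with earlier results of these data known. Named genes were Prdm1 and Foxp3, all genes called in either fit, the 10 genes in each direction with the smallest p without overlap, the 5 largest differences in each direction with the same sign in 3 pairs and an unadjusted p under 0.05, and up to 4 members of each list by p, with up to 2 more where a member defines a helper lineage; genes at least 2-fold apart in every pair and further list members were named after their values were seen. Clones are counted. The alternatives were another normalization, filter, probe rule, variance model, array weights, blocks, leaving out arrays and, chosen after seeing the data, the array sets as a term and leaving out Teff pairs 1 and 2. Scripts were tested on simulated data.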

Additional observations from a re-analysis of the deposited data

Results flagged for a closer look

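The genotype difference of Il10 was not the same in the 2 cell types: the Teff difference minus the Treg difference was 2.78 on the log2 scale, from -2.46 in Teff and -5.24 in Treg. The fit with pairs gave an adjusted p of 0.0124, and the fit without pairs 0.9998. All 3 pairs of each cell type showed the lower level on the CKO array.

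Probes without a single gene symbol were not used in the comparison. Of 1817 such kept probes, limma with pairs called 11 between CKO and Ctrl Teff cells (0.605% of them), 6 higher and 5 lower, with differences from -1.12 to 1.23. Without pairs it called 0, with 75 at an unadjusted p under 0.05, against 173 with pairs.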

How the results depend on the processing

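The comparison without pairs called 2 genes. It called 1 with the filter at the 75th percentile, 0 with Teff arrays alone, 12 and 8 with the replicate block as a fixed and as a random term, and 0 without Teff pairs 1 and 2. Leaving out 1 array or 1 Teff pair gave 0 to 52. With the replicate block 12 genes were called, against 2 with no replicate block, 72 with the 75th percentile filter, 25 with every probe on its own, 79 with a trended robust variance and 3 with Teff arrays alone. Leaving out a pair gave 4 to 123. The dependence on cell type was called for 2 genes, and for 0 with the 75th percentile filter, 4 with the trended robust variance, 5 and 6 with the fixed and random block, and 0 without Teff pairs 1 and 2; leaving out arrays gave 0 to 22. Without Teff pairs 1 and 2 each group keeps 1 Teff array, assumed to vary like the other groups. The causes of these changes were not tested.

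Of 97 genes followed, 8 changed sign somewhere. None of these was called in the fits with and without pairs on all arrays, but Fcer1a passed without pairs when CKO Teff 3 or Teff pair 3 was left out. Without Teff pairs 1 and 2 the difference was -0.0054 for Fcer1a, 0.898 for Il17f, -0.952 for Il4, -0.299 for Il5, -0.0393 for Klrk1 and -0.485 for Tbx21. With array weights it was -0.0236 for Foxp3. Leaving out 1 array or 1 Teff pair gave -0.0501 to 0.1387 for Foxp3, -0.0859 to 0.0535 for Ifng, -0.6171 to 0.3758 for Il17f, -0.038 to 2.3247 for Il4 and -0.1068 to 0.3766 for Tbx21. Signal over background could not be assessed, since detection calls were not used here.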
